A study of Parhyale hawaiensis with 42 samples.

Results

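Of 31153 Trinity genes measured in embryos of the amphipod crustacean *Parhyale hawaiensis*, 39 held a nearly even share of library reads through embryogenesis. These 39 genes are described here. On other scales most of them were not as even, as given below. They were chosen on the measured levels. Reads were summed per Trinity gene, scaled to counts-per-million (CPM, which sets the reads of a gene against all reads of its library) and averaged over the 2 libraries of each of 7 time-points. A gene was a member when every time-point mean was at least 20 CPM and the highest mean was at most 1.5 times the lowest. At most 200 genes were to be taken, and fewer met the rule, so all 39 are members. They are 1.36% of the 2859 genes with every mean at or above 20 CPM, called the expressed genes below.

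An early embryo runs on mRNAs that the mother laid down in the egg, and later replaces them with mRNAs that it transcribes itself. A gene whose total level stays even can therefore do so with the same transcript throughout or with different transcripts before and after that exchange, since alternative promoters, splicing and polyadenylation sites let a gene make several isoforms. Genes for functions that every cell needs often have even levels, and such genes serve as references for measurements of other genes. Trinity assembles transcripts from reads and groups those that share sequence into a gene. The files do not pair the Trinity IDs with gene names, so the members are described by ID, level, length and isoforms, and the embryonic origin of the libraries could not be checked against marker genes.

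The mRNA libraries were made from poly-A selected RNA of pooled whole embryos of a wild-type laboratory strain, kept at 1 rearing condition without treatment, so that the time-points differ in age alone by their labels. There were 14 libraries, 2 for each of the early time-points S1–4, S5–6 and S7–11, the middle ones S14 and S17, and the late ones S21–23 and S24–30, where S stands for the stage of development. The labels give stage 6 for the second time-point and stages 8 to 11 for the third. Both S1–4 mRNA libraries also carry a label for small RNA as their kind of molecule, but their titles and values are those of mRNA libraries, and they were used as such. The libraries held 41354642 to 64892281 counts (median 53153516). Nothing states whether the 2 libraries of a time-point came from separate broods, so p-values measure only the spread between these libraries. In whole embryos, fewer cells that carry an mRNA and less of it per cell cannot be told apart.

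The 39 members were moderately expressed. Their mean over the 7 time-points was 24.0 to 369.8 CPM with a median of 91.1 CPM, beside 117.7 CPM over the expressed genes. Of the members, 17 had a mean of at least 100 CPM and 7 had less than 40 CPM. The lowest count of a member in a library was 794.8 and the highest was 25332, so counting error was small. Between the 2 libraries of a time-point, the higher CPM of a member was 1.04 times the lower in the median and 1.16 times at most over 273 pairs. Whether the remaining differences between time-points exceed this spread was not tested, since the time-point means chose the members.

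Even levels in CPM were rare among expressed genes. The median ratio of the highest to the lowest time-point mean was 4.33 over the 2859 expressed genes, with quartiles of 2.80 and 7.72 and a range of 1.20 to 327. In 512 of them (17.9%) it exceeded 10, and in 249 it was at most 2. Among the members the median was 1.39. As these values chose the members, they are a description and were not tested.

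**Figure D1:**
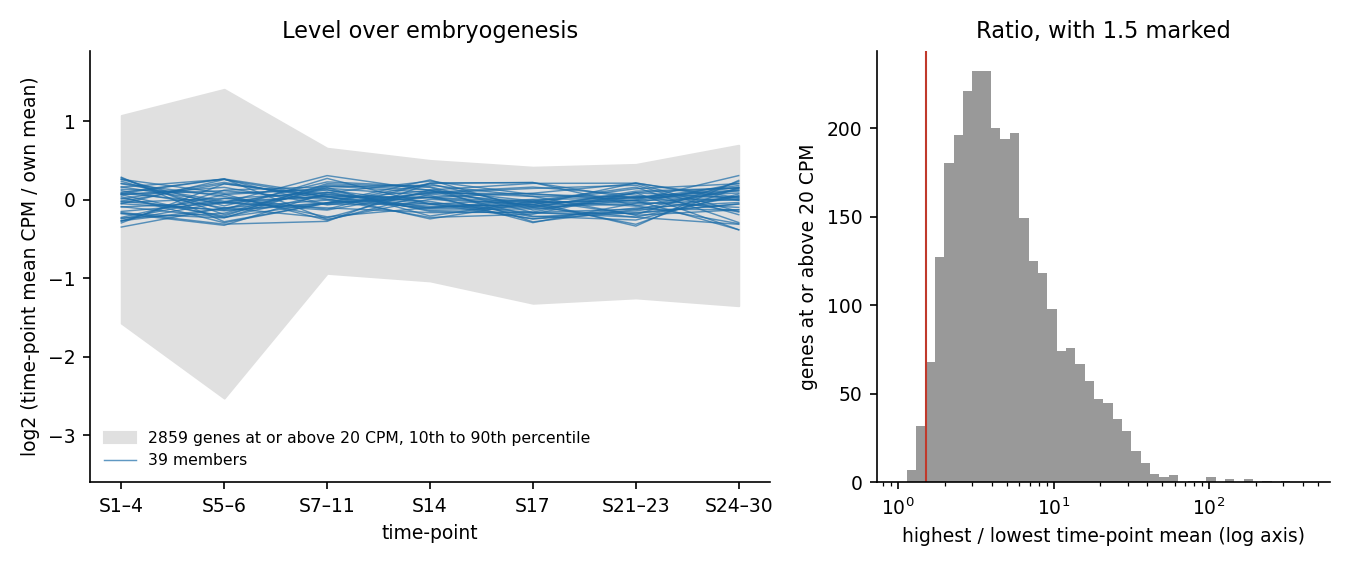
Left, the mean CPM of each time-point divided by the gene's own mean over 7 time-points (log2), with a line for each of the 39 members and a grey band from the 10th to the 90th percentile of the 2859 expressed genes. Right, the number of expressed genes by the ratio of highest to lowest time-point mean on a log axis, with a red line at 1.5. The band is widest at S5–6, and the 39 members form the left edge of a distribution with a median of 4.33.

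The members with the highest level were TRINITY_GG_25353_c0_g1, with 1 transcript of 7864 bases, and TRINITY_GG_69069_c0_g1, with a longest transcript of 3381 bases. TRINITY_GG_25353_c0_g1 had 384 and 393 CPM at S1–4, 402 and 400.2 at S5–6, 368 and 373 at S7–11, 390.4 and 412 at S14, 339 and 359 at S17, 379 and 408 at S21–23, and 276 and 292 at S24–30. Both S24–30 libraries were thus below all 12 others. TRINITY_GG_69069_c0_g1 had 374 and 377 CPM at S1–4, 400.4 and 400.1 at S5–6, 345 and 341 at S7–11, 379.6 and 381 at S14, 379 and 378 at S17, 352 and 360.4 at S21–23, and 278 and 273 at S24–30. Here too the level was even until S21–23 and lowest in both S24–30 libraries.

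The narrowest ratios were those of TRINITY_GG_114555_c0_g1 (1.20) and TRINITY_GG_31556_c1_g1 (1.24). TRINITY_GG_114555_c0_g1, with transcripts of 14374 and 14218 bases, had 139 and 139 CPM at S1–4, 151 and 149.9 at S5–6, 143 and 138 at S7–11, 166 and 165 at S14, 163 and 155 at S17, 158 and 158 at S21–23, and 168 and 166 at S24–30. TRINITY_GG_31556_c1_g1 had 73.8 and 72.5 CPM at S1–4, 61.9 and 58.1 at S5–6, 76.2 and 70.8 at S7–11, 68.4 and 66.3 at S14, 70.2 and 70.2 at S17, 69.5 and 72.5 at S21–23, and 75.6 and 73.0 at S24–30. The first was lowest at S1–4 and S7–11, and the second was lower at S5–6 than in any other library.

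At the edge of the rule, TRINITY_GG_137047_c0_g1 had a ratio of 1.497 between its lowest and highest time-point means of 92.2 and 138 CPM. TRINITY_GG_114891_c0_g1 had a ratio of 1.493 between 58.2 and 86.8 CPM. Just outside were TRINITY_GG_448_c0_g1 with 1.501, between 75.4 and 113 CPM, and TRINITY_GG_52894_c1_g1 with 1.503, between 37.5 and 56.4 CPM. There is no gap in the values at 1.5, since 69 expressed genes had a ratio of up to 1.6, and 7 had one of up to 1.3.

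What was left of variation in the members did not follow 1 time course. The mean was highest at S1–4 in 7 members and at S5–6 in 8, then at S7–11 in 5 and at S14 in 4, with S17 the highest in 2, S21–23 in 4 and S24–30 in 9. It was lowest at S1–4 in 8 members and at S5–6 in 8 others, then at S7–11 in 1 and at S14 in 4, with S17 the lowest in 6, S21–23 in 5 and S24–30 in 7. Of the expressed genes, 38.1% were lowest at S5–6 and 26.1% were highest there. The sum over the 39 members was 4330 to 4549 CPM at the 7 time-points.

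The choice was repeated on 1 library per time-point and read in the other, which the choice had not used. Replicate 1 of each time-point chose 34 genes, and 29 of them (85.3%) were within a ratio of 1.5 in replicate 2, beside 1.33% of all genes at or above 20 CPM there. Replicate 2 chose 38 genes, and 30 of them (78.9%) were within 1.5 in replicate 1, beside 1.19%. The highest ratio in the libraries that had not chosen was 1.64 and 1.66. The libraries of a time-point lay close together in members, and nothing states that they came from separate broods. The split therefore describes only the spread between these libraries, and whether the levels are even in other embryos was not tested. Over all 14 single libraries, the highest level of a member was at most 1.5 times its lowest in 26 of the 39, and 1.64 times at most.

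The even level was a property of CPM, and most members did not have it on other scales. CPM divides by all reads of a library. TMM of edgeR and the size factors of DESeq2 instead set the scale by the typical gene, and TPM, short for transcripts-per-million, divides reads by transcript length before it scales them to the total. With TMM, 11 of the 39 members were within 1.5 (median ratio 1.62, range 1.28 to 1.98). With size factors 6 were (median 1.83, range 1.33 to 2.29). In TPM 1 was, TRINITY_GG_91737_c0_g1, which is named here after its values were seen (median 2.03, range 1.32 to 4.65). No member was within 1.5 on all 4 scales. The number of genes that met the whole rule was 38 with TMM, 34 with size factors and 21 in TPM, and 10, 6 and 0 of these were members.

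The scales differ between time-points by amounts that are close to the width of the rule. Relative to CPM, TMM moved every gene by −0.24 at S1–4 and 0.22 at S5–6, then by 0.06 at S7–11 and −0.03 at S14, with 0.19 for S17, 0.02 for S21–23 and −0.22 for S24–30, on the log2 scale, centred on the 7 time-points. The shifts of the size factors were −0.36, 0.34, −0.22, −0.08, 0.27, 0.11 and −0.07 in the same order. In TPM the shift is set by the lengths of the transcripts that the reads of a library fell on. Their mean effective length, weighted so that it gives the factor between CPM and TPM, was 1101 bases at S1–4 and 1343 bases at S5–6, then 826 at S7–11 and 860.1 at S14, with 788 for S17, 765 for S21–23 and 970.2 for S24–30. A transcript of fixed length and even CPM was therefore 1.75 times as high in TPM at S5–6 as at S21–23. The 9 members with a single transcript, whose length cannot vary, had a median TPM ratio of 2.05 (highest 2.62), and 0 of them were within 1.5. The number of mRNA molecules per embryo was not measured.

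**Figure D2:**
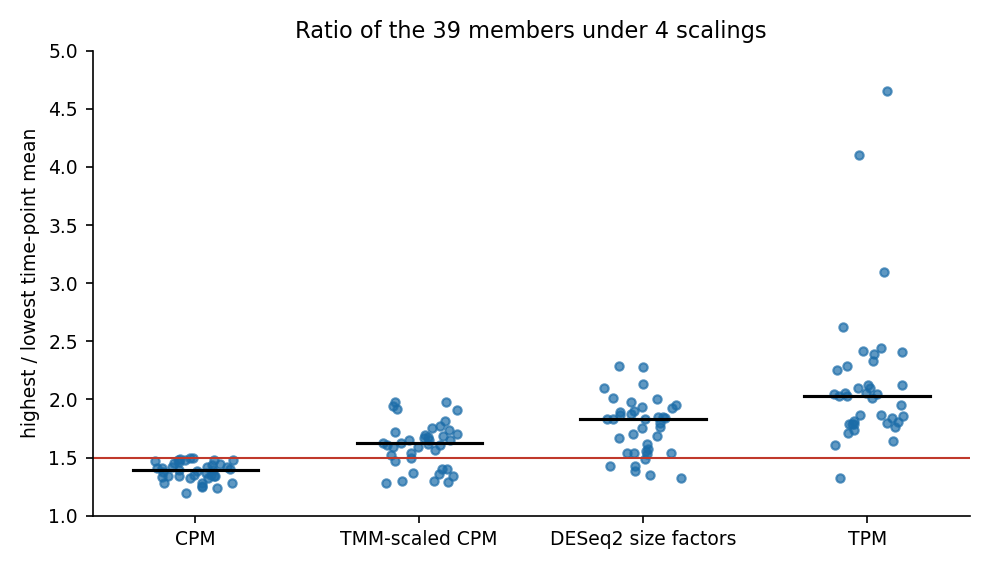
The ratio of the highest to the lowest time-point mean of the 39 members (points, spread sideways for legibility) with the level as CPM, TMM-scaled CPM, DESeq2 size factors or TPM. Black bars are medians (1.39, 1.62, 1.83 and 2.03) and the red line is at 1.5. Below the line are 39, 11, 6 and 1 members.

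Members and expressed genes had the same median number of transcripts, 2, and members less often had a single one. The members' longest transcripts had a median of 5506 bases (range 294 to 15328), beside 4756 bases in expressed genes and 869 bases in all genes. In 8 members (20.5%) the longest transcript exceeded 10 kb, beside 11.4% of expressed genes, and in 2 (5.13%) it was under 1 kb, beside 7.73%. The longest member was TRINITY_GG_104741_c0_g4, with 2 transcripts that are both 15328 bases long. Of the members, 9 (23.1%) had a single transcript, beside 41.7% of expressed genes and 66.8% of all genes. The 39 members had 105 transcripts in all. The main transcript held 88.4% of the reads of a member in the median, beside 98.5% in expressed genes. These are counts beside counts, with no test, since genes are not replicates.

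The rule held the sum over a gene's transcripts even, and not the transcripts themselves. In members with 2 or more transcripts, 57 transcripts reached 20 CPM at a time-point at least. Of these 10 (17.5%) were within a ratio of 1.5, beside 0.578% of 3635 such transcripts of expressed genes, a share that the choice of even genes raises. A ratio over 2 was found in 40 and one over 10 in 20, and 15 had a mean listed at 0 at a time-point. Listed at 0 in all 10 libraries from S7–11 on were 4 of the 57 (7.02%), beside 10.3% of the 3635. Listed at 0 in all 4 libraries before were 4 (7.02%), beside 4.02%. Where a library has 0 counts of a transcript, 3 counts are allowed, which is at most 0.254% of the reads of the genes named below and covers counting error only.

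Isoform use, the share of a gene's reads that each transcript holds, was not used by the rule. Each transcript was tested by edgeR's quasi-likelihood F-test with the gene's total as the offset, so that the level of the gene and the scaling of the library cancel. A gene was called when a transcript had an adjusted p of at most 0.001 and mean shares that differed by at least 10 percentage points. Of the 30 members with 2 or more transcripts, 24 had 2 transcripts with a mean share of at least 5% and were tested. Over the 7 time-points 12 of the 24 changed (50%), beside 28.3% of all 5481 genes tested and 59.8% of the expressed genes tested. From the first to the last time-point, S1–4 to S24–30, 12 changed, beside 25.5% of all genes tested and 51.7% of expressed genes. These were not the same 12 members. TRINITY_GG_69134_c1_g1 was called here and not over the 7 time-points, and TRINITY_GG_76239_c0_g1 the reverse. The members' share lies between that of all genes and that of expressed genes, and is not read as a result about the members. DESeq2 called 18 of the 24 over the 7 time-points and limma 10. A call needed only 1 transcript, and the other transcript of a pair did not always pass. In TRINITY_GG_31615_c0_g1, whose 2 transcripts mirror each other, i5 had an adjusted p of 0.000488 and i8 one of 0.895 (edgeR). In other members, such as TRINITY_GG_41201_c0_g1, both passed.

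By step, most changes fell between S5–6 and S7–11. Of the 24 members 10 changed there (41.7%), beside 17.9% of all genes tested and 38.8% of expressed genes. This count was lower when a library was left out, and lowest without either library of S5–6 or replicate 2 of S7–11. Without an S5–6 library only 22 members were tested, so part of that fall can come from members no longer tested. From S1–4 to S5–6 2 members changed (8.33%), beside 5.78% of all genes and 14.3% of expressed genes. Fewer did when replicate 2 of either time-point was left out. From S21–23 to S24–30 2 changed (8.33%), beside 2.46% of all genes and 5.21% of expressed genes. Fewer did when either S5–6 library was left out.

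Over the 3 steps in between, edgeR called 0 of the 24 members. From S7–11 to S14 the share was 1.51% in all genes and 3.42% in expressed genes. Here 9 members had an unadjusted p under 0.05, and limma called 0 and DESeq2 1. From S14 to S17 the share was 1.00% in all genes and 2.64% in expressed genes. Here 11 members had an unadjusted p under 0.05, and limma called 1 and DESeq2 5. Without replicate 2 of S14, edgeR called 1. From S17 to S21–23 the share was 0.493% in all genes and 0.699% in expressed genes. Here 5 members had an unadjusted p under 0.05, and limma called 0 and DESeq2 3. With either S24–30 library left out, edgeR called 1. Counts this low are not read against the background of these steps.

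**Figure D3:**
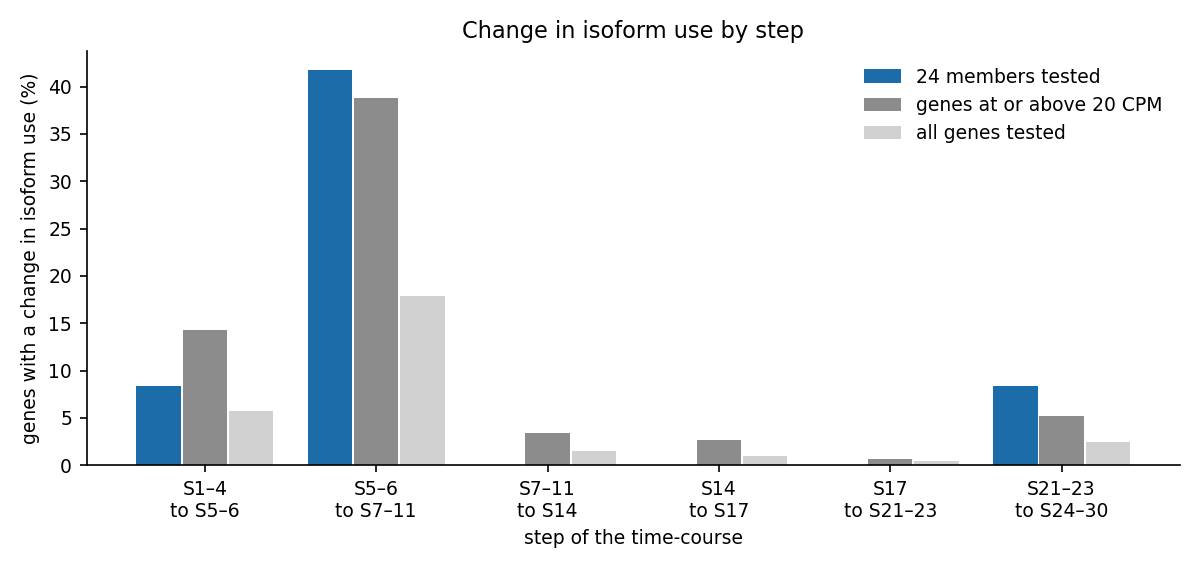
The percentage of genes with a change in isoform use at each of 6 steps (edgeR, adjusted p of at most 0.001 and at least 10 percentage points), for the 24 members tested (blue), the expressed genes tested (dark grey) and all genes tested (light grey). All 3 are highest from S5–6 to S7–11, at 41.7, 38.8 and 17.9%, and bars of 0 members stand at 3 steps.

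The range of transcript shares in the tested members, called or not, was like that in other genes tested. These ranges include the spread between libraries and are not sizes of called changes. The largest range of a transcript's mean share over the time-points had a median of 46.0 percentage points in the 24 members, beside 44.4 in expressed genes and 47.0 in all genes tested. The range was at least 50 points in 9 members (37.5%), beside 40.3% and 45.8%. Among these 9 are the uncalled TRINITY_GG_31556_c1_g1, with 76.1 points, and TRINITY_GG_114555_c0_g1, with 50.8 points. A different transcript held the most reads at some time-points than at others in 12 members (50%), beside 54.2% and 55.4%.

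TRINITY_GG_106994_c0_g1 exchanged a long transcript for a much shorter one while its level in reads stayed in the narrow range of the rule. Its transcript i1, of 10472 bases, held 100% of the reads in all 4 libraries of S1–4 and S5–6. It then held 2.13 and 3.24% at S7–11, 0.763 and 0.793% at S14, 0.787 and 0.918% at S17, 1.93 and 2.03% at S21–23, and 14.7 and 15.9% at S24–30. Transcript i5, of 2455 bases, was listed at 0 in the 4 early libraries and held 97.1 and 96.8% at S7–11, 99.1 and 98.9% at S14, 98.8 and 98.3% at S17, 97.2 and 96.5% at S21–23, and 75.1 and 73.8% at S24–30. The 4 early libraries and the 10 later ones do not overlap for either transcript. From S5–6 to S7–11 the mean share of i1 fell by 97.3 points (edgeR, adjusted p = 7.49e-07) and that of i5 rose by 96.9 points (adjusted p = 8.78e-10). From S21–23 to S24–30 i1 rose again (adjusted p = 5.23e-05). Across the exchange the gene had 225 ± 0.887 CPM at S5–6 and 230.2 ± 3.46 CPM at S7–11 (SD, n = 2), and over all time-points 225 to 324 CPM. In TPM, which counts a read on a short transcript for more, it had 29.5 at S5–6 and 84.3 at S7–11, and a ratio of 4.65 over the time-points. Whether both transcripts come from the same gene, which Trinity's grouping takes as given, was not examined here.

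TRINITY_GG_41201_c0_g1 switched transcripts at the same step and partly back at the end. Its transcript i3, of 2820 bases, held 82.6 and 79.3% at S1–4 and 84.2 and 82.4% at S5–6, was listed at 0 in all 8 libraries from S7–11 to S21–23, and held 42.1 and 49.1% at S24–30. Transcript i5, of 3079 bases, held the rest, which was 17.4 and 20.7% at S1–4, 15.8 and 17.6% at S5–6, 100% in the 8 middle libraries and 57.9 and 50.9% at S24–30. The share of i5 rose from S5–6 to S7–11 by 83.3 points (edgeR, adjusted p = 8.47e-07), and i3 rose from S21–23 to S24–30 (adjusted p = 0.000133). The gene's level was 48.3 to 69.5 CPM, with 60.5 ± 3.78 at S5–6 and 54.9 ± 0.608 at S7–11 (SD, n = 2).

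TRINITY_GG_107682_c0_g1, which has 7 transcripts, exchanged i15 of 7815 bases for i37 of 10709 bases. Transcript i15 held 64.6 and 65.2% at S1–4, 62.1 and 62.1% at S5–6, 15.7 and 15.7% at S7–11, and 14.3 and 6.42% at S14, and was listed at 0 from S17 on. Transcript i37 held 6.41 and 13.5% at S1–4, 2.69 and 5.31% at S5–6, 57.8 and 59.8% at S7–11, 54.5 and 63.6% at S14, 67.0 and 68.2% at S17, 70.1 and 70.2% at S21–23, and 66.1 and 67.9% at S24–30. The short transcript i35, of 2332 bases, held 20.9 to 33.9% and changed less, by 11.9 points over the time-points (edgeR, adjusted p = 0.000527). From S5–6 to S7–11 i37 rose by 54.8 points (edgeR, adjusted p = 0.000236). Over the 7 time-points i37 lay near the threshold, with an adjusted p of 0.000542 and of 0.00038 to 0.00183 when each library was left out, and passed in 3 of these 14 fits, while i15 (adjusted p = 9.77e-05) or another transcript kept the gene called in all 14.

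TRINITY_GG_58506_c1_g1 moved over several steps. Transcript i4, of 5297 bases, held 32.3 and 33.0% at S1–4, 55.9 and 57.1% at S5–6, 77.0 and 87.4% at S7–11, 89.97 and 93.7% at S14, and 96.6 to 99.1% in the 6 libraries after that. Transcript i8, of 3512 bases, held 52.5 and 53.0% at S1–4, 30.8 and 31.1% at S5–6, 10.3 and 5.31% at S7–11, and was listed at 0 from S14 on. The share of i4 rose from S1–4 to S5–6 (edgeR, adjusted p = 0.000243) and again from S5–6 to S7–11 (adjusted p = 0.000731). The gene had 28.5 to 37.8 CPM over the time-points.

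**Figure D4:**
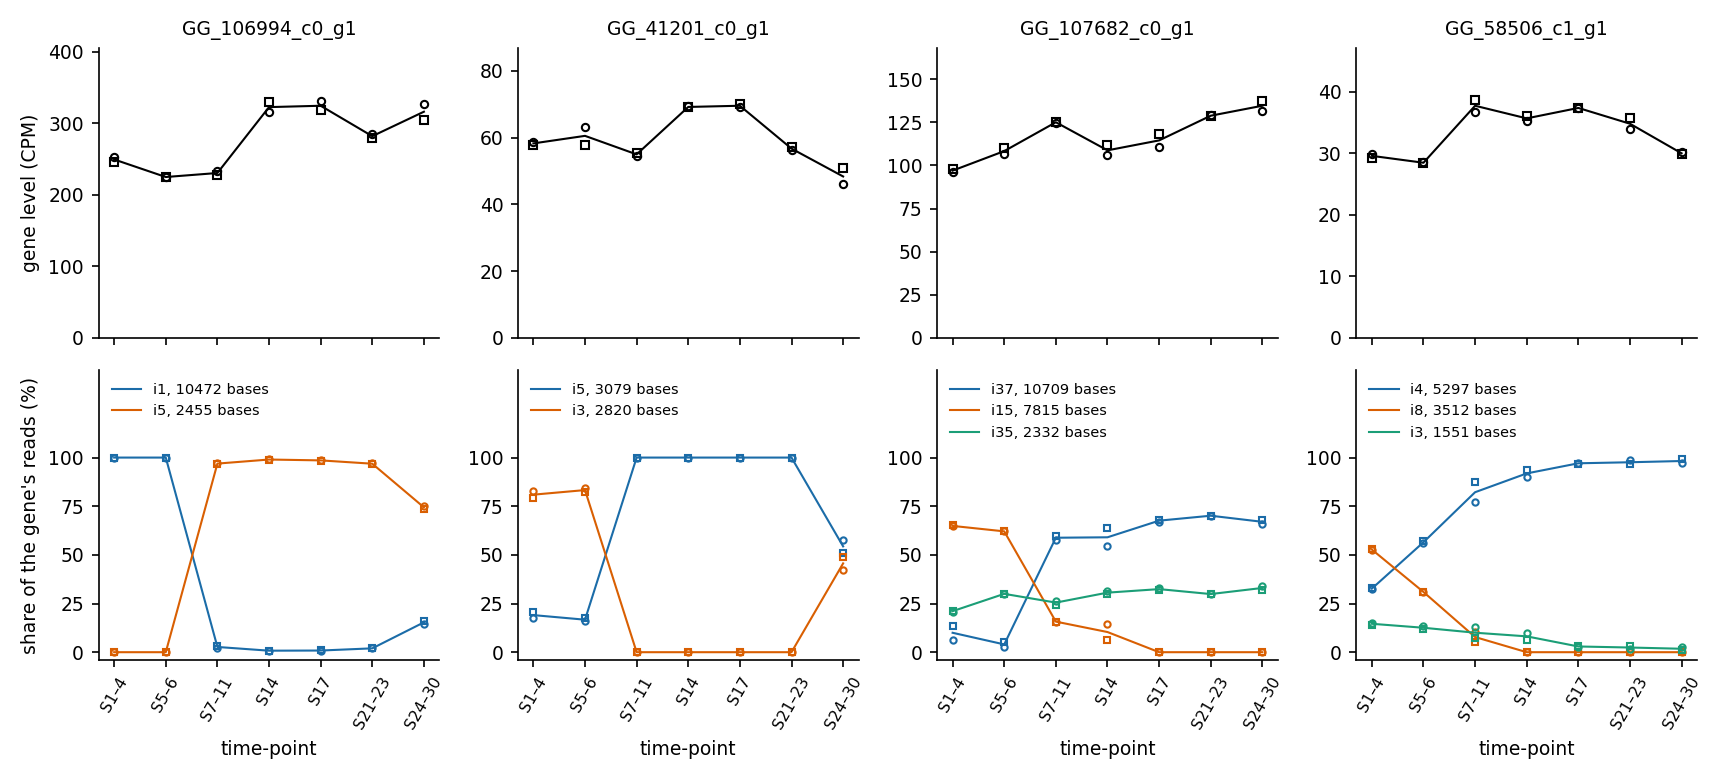
Upper row, the level of 4 members in CPM against the time-point, and lower row, the share of the gene's reads held by each transcript that was tested. Circles are replicate 1, squares replicate 2 and lines their mean. The levels stay within a ratio of 1.44 while the leading transcript changes between S5–6 and S7–11 in 3 of the 4, and already by S5–6 in TRINITY_GG_58506_c1_g1.

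In each of the 12 called members, the called transcript with the largest range was followed. Its largest change was from S5–6 to S7–11 in 8 members and from S14 to S17 in 2. It was from S1–4 to S5–6 in 1 and from S21–23 to S24–30 in 1. The former, TRINITY_GG_76239_c0_g1, changed back by the same 56.7 points from S5–6 to S7–11, and this tie was counted at the earlier step. The transcripts that gained and lost most in that step differed in length by 8.41 to 76.6%, and the gaining one was the longer in 8 of the 12. The member with the tie is not among these 8, and would be at the later step. The 2 changes from S14 to S17 had an adjusted p of 0.0133 (edgeR), above the threshold. The 1 from S21–23 to S24–30, of i5 in TRINITY_GG_268_c0_g1, had 0.0697 (edgeR). Another transcript could change more at another step. In that member i7 rose by 37.9 points from S5–6 to S7–11 (edgeR, adjusted p = 0.000184). From S1–4 to S24–30 the mean transcript length was higher in 7 and lower in 4 of the 12, and it was higher in 77.0% of the called expressed genes. The member with the tie, TRINITY_GG_76239_c0_g1, is named after its values were seen. Its transcript i4, of 3103 bases, held 56.3 and 57.1% at S5–6 and was listed at 0 in the other 12 libraries, and i1, of 3870 bases, fell by 56.7 points at that step (edgeR, adjusted p = 3.5e-07) and returned to 100% at S7–11 (adjusted p = 7.82e-08). The adjusted p of i4 itself was 0.0166 and 0.00652 at these 2 steps.

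The other 12 tested members were not called over the 7 time-points, although 9 of them had a range of mean shares of at least 20 points. In some the libraries of a time-point differed widely, and in others the adjusted p came close to the threshold. TRINITY_GG_91737_c0_g1 is of the second kind, with a range of 32.7 points for i10 and an adjusted p of 0.00205 (edgeR). Its transcript i1 had an adjusted p of 0.000666 (edgeR), but its range of 7.89 points was below the 10 points required. TRINITY_GG_69134_c1_g1, named after its values were seen, was called from S1–4 to S24–30 though not over the 7 time-points. Its transcript i12 rose by 48.3 points between these 2 time-points (edgeR, adjusted p = 0.000467, and 0.00411 over the 7 time-points). TRINITY_GG_114555_c0_g1, which had the narrowest level of all, had shares of i8 of 95.6 and 89.1% at S1–4, 62.3 and 76.9% at S14, 57.9 and 26.1% at S21–23, and 41.5 and 42.4% at S24–30. Its adjusted p over the 7 time-points was 0.0447 for i8 and 0.0069 for the other transcript, i12 (edgeR). In TRINITY_GG_31556_c1_g1, transcript i17 of 6695 bases held 86.6 and 86.6% at S1–4, 27.5 and 2.92% at S5–6 and 86.1 and 86.1% at S7–11, with i11 of 6691 bases holding 61.8 and 88.0% at S5–6. Its adjusted p was 0.293 for i17 and 0.285 for i11. Where transcripts have the same length, libraries of a time-point could differ widely. In TRINITY_GG_104741_c0_g4 the share of i9 was 100 and 50% at S14 and 50 and 100% at S24–30, and its adjusted p was 0.936. No sequences were compared, so whether such transcripts are near-identical was not examined, nor was it for the called members. How their reads were divided is uncertain, and pairs of the same or nearly the same length with such spread are not read as isoforms that changed.

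The mean length of a member's transcripts, weighted by TPM, was tested with limma and called at an adjusted p of at most 0.001 and a difference between time-points of at least 0.32 on the log2 scale. It changed in 9 of the 24 members (37.5%), beside 16.6% of all genes tested and 28.2% of expressed genes, and 5 of the 9 were also called for isoform use. With the length weighted by reads in place of TPM, 5 members were called. The largest ratio, 4.24, was that of TRINITY_GG_106994_c0_g1, whose mean length fell from 10472 bases in all 4 libraries of S1–4 and S5–6 to 2499 and 2513 bases at S7–11 (limma, adjusted p = 1.43e-14). TRINITY_GG_100119_c0_g1 went the other way, with a ratio of 2.11 (adjusted p = 8.86e-08).

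In TRINITY_GG_100119_c0_g1 the mean length was 4987 and 4821 bases at S1–4, 5103 and 4934 at S5–6, 7620.2 and 7864 at S7–11, 8074 and 8125 at S14, 8424 and 8961 at S17, 9788 and 9691 at S21–23, and 10282 and 10377 at S24–30. The 4 libraries before S7–11 lay below the other 10. Its transcript i7, of 3766 bases, held 36.8 and 36.7% at S1–4 and 34.2 and 37.8% at S5–6 and was listed at 0 in all later libraries (edgeR, adjusted p = 0.000416 for S5–6 to S7–11). Transcript i3, of 4268 bases, fell from 31.5 and 36.5% at S1–4 to 7.22 and 6.64% at S24–30 (adjusted p = 6.06e-06). The other 3 tested transcripts are all 11604 bases long, and their single shares differed widely between libraries (adjusted p of 0.682 to 0.976). The gene had 92.9 ± 0.745 CPM at S1–4 and 62.5 ± 3.86 CPM at S24–30 (SD, n = 2), and in TPM 22.0 and 6.02, with a ratio of 4.10 over the time-points. TRINITY_GG_91737_c0_g1 had the opposite relation of the scales. Its mean length was 5225 bases at S5–6 and 3730.1 bases at S21–23 (ratio 1.40, limma, adjusted p = 0.0002), and its ratio was 1.48 in CPM and 1.32 in TPM.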

How the data were processed

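The 14 mRNA libraries were used, and 28 small RNA libraries of the series were not used here. The authors aligned reads to the Phaw 5.0 assembly by STAR (version 2.7.2b), built transcripts in Trinity, kept those that mapped back, and quantified them by salmon (version 0.14.1). The deposited values used are expected counts per transcript, not normalized, TPM per transcript, and transcript lengths. Transcripts of near-identical sequence share reads, which salmon divides by estimate.

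Expected counts were summed per Trinity gene and scaled to CPM. For isoform use they were rounded and fitted with edgeR (version 4.0.16) in 1 model of 7 time-points without a replicate block, over genes with at least 10 counts in every library. limma (version 3.58.1, 0.5 added to both counts of a ratio) and DESeq2 (version 1.42.0) were alternatives. TPM-weighted lengths were tested with limma on log2 values. Benjamini-Hochberg adjustment of p-values ran over the whole table, and the code was tested on simulated data. R (version 4.3.3) and Python (version 3.11.15) were used.

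The members and the tests were chosen with earlier results of these data known. Genes named are the 2 with the highest level, the 2 with the lowest ratio, the 2 on either side of 1.5, the longest, the 4 called with the largest range of a share and the 2 with the largest change of length. The 2 libraries of a time-point differed by more than sampling noise in all 7 pairs (chi-squared over its degrees of freedom 3.59 to 13.0), and no pair was identical.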

Additional observations from a re-analysis of the deposited data

How the results depend on the processing

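The choice of the members depended on the cut-off of the ratio and on the scale. The number of genes that met the rule, 39, was 21 in TPM, 61 with a floor of 1 CPM, 3 at the narrower ratio tried and 249 with a ratio of 2, and 37 to 41 when each library was left out. The 39 members within 1.5 became 11 with TMM, 6 with size factors and 1 in TPM, and 36 to 39 when a library was left out.

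For isoform use over the 7 time-points, 12 members became 7 when a mean share of at least 20% was asked for (14 members tested), and 9 to 11 when a library was left out, all but 2 at most of them among the 12. Over all genes the 1550 calls were 3125 with DESeq2, 2750 at an adjusted p of 0.05 and 794 with the minimum share of 20%. With that minimum share, the 2 members from S1–4 to S5–6 became 0 and the 10 from S5–6 to S7–11 became 5. With DESeq2 the 6 successive steps had 5, 12, 1, 5, 3 and 5 members, and with limma the first had 1 and S14 to S17 had 1. At an adjusted p of 0.05, S14 to S17 had 4, S17 to S21–23 had 1 and S21–23 to S24–30 had 4. Without a minimum difference S7–11 to S14 had 1, and with expressed genes alone in the fit S14 to S17 had 2. Left-out libraries gave 1 to 2, 5 to 8, 0, 0 to 1, 0 to 1 and 1 to 3 members at the 6 steps, and 8 to 11 from S1–4 to S24–30. Mean length, called in 9, was called in 5 when weighted by reads and in 7 to 10 when a library was left out.

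The labels give replicate numbers without saying what they share, and the samples were not taken as paired. Differences between replicates 1 and 2 correlated between time-points at −0.05 to 0.08 for transcript shares, with 0 of 21 pairs over 0.1. For gene levels (log2 CPM) r was −0.08 to 0.49 with a median of 0.18, and 16 of 21 pairs were over 0.1, so replicates of the same number partly deviated together in level, and the split of the choice by replicate number may share this. With a replicate block the members called were 11 over the 7 time-points, 7 from S5–6 to S7–11 and 1 from S21–23 to S24–30, and 1169 over all genes.

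In each of the 12 called members, the called transcript with the largest range was followed, so it had passed in the main fit. Under other settings 60 of 66 values passed both thresholds, and a smaller share did with a library left out. TRINITY_GG_31615_c0_g1 was called in 4 of 14 such fits and TRINITY_GG_90787_c0_g1 in 0 of 10. Differences of TPM shares in place of read shares, an alternative chosen after seeing the data, called 12 members, 11 of them the same. With 2 libraries per time-point, a left-out library leaves 1, which is assumed to vary like the others. Of the 24 members, 23 were tested for isoform use without an S1–4 library and 22 without an S5–6 library.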
